A study of Mus musculus with 9 samples.

Results

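The genes described here are the classic antiviral interferon-stimulated genes, a set of 43 gene symbols. With earlier results of these data known, they were chosen by name from textbook knowledge of the interferon response. Of these, 42 have a row in the deposited count tables, which list 20418 gene symbols in all, and Herc6 is not analysed here. For a symbol with several transcripts, the one with most reads on average was used. All 42 genes had enough reads to be tested. The cells were splenic CD8+ T cells of C57BL/6 female mice aged 6 weeks, and RNA sequencing asked how they responded to interleukin-15 (IL-15) or interleukin-2 (IL-2). These growth factors of T cells share the receptor chains Il2rb and Il2rg and signal through the transcription factor STAT5. There were 9 libraries, 1 per condition: IL-15 at 500 nM for 24 h, IL-2 at 500 nM for 24 h, IL-15 at 500 nM for 4 h, IL-2 at 500 nM for 4 h, IL-15 at 1 nM for 24 h, IL-2 at 1 nM for 24 h, IL-15 at 1 nM for 4 h, IL-2 at 1 nM for 4 h, and untreated cells. Each library was made from the pooled RNA of 3 samples treated alike, so no condition was repeated, and the untreated cells carry no culture time in the labels. Time in culture and exposure to cytokine therefore cannot be told apart in any comparison with untreated cells.

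Interferons are secreted when a cell senses viral nucleic acid, and they act through surface receptors that switch on JAK kinases. Type I interferons assemble a complex, with STAT2 and IRF9 among its parts, that binds the interferon-stimulated response element (ISRE) of target promoters. Interferon gamma, which activated CD8+ T cells secrete, acts through a different element, the gamma-activated site (GAS), and STAT5 dimers recognise closely related letters. The target genes encode proteins that bind or cut viral RNA, starve viruses of nucleotides, hold virions at the cell surface, sense further viral RNA and dampen the signal again. In T cells the same genes are known to follow type I interferon, and several of the IRF genes among them also respond to interferon gamma.

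RefSeq promoter windows (GRCm38.p6, 250 bases before to 50 after the start) were found for 32 of the 42 genes. The ISRE was searched as GAAA, NN and GAAA in a row, N being any base, and the GAS as TTCNNNGAA, each on both strands. These genes had 40 windows in all, and a gene was counted if any of its windows held a match. An ISRE match was found for 13 of the 32 genes (40.6%), against 1079 of 27025 genes with a window (3.99%). A GAS match was found for 9 of the 32 genes (28.1%), against 2582 of 27025 genes (9.55%). In all, 19 of the 32 genes had at least 1 of the motifs, and Bst2, Eif2ak2 and Oas1a had both. Stretches of 8 windows with a match, chosen with the matches known, show what these elements look like. They are written 5′ to 3′ on the strand of the gene, with every matched letter in capitals, and overlapping matches run together.
Isg15, chr4:156200855-156200916, minus strand: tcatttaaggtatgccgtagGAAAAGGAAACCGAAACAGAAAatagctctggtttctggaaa
Ifit1, chr19:34640765-34640833, plus strand: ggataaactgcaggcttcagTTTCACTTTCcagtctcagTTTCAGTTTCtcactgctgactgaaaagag
Ifit3, chr19:34583353-34583436, plus strand: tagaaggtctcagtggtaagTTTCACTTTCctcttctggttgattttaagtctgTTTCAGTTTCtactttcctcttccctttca
Rsad2, chr12:26456543-26456592, minus strand: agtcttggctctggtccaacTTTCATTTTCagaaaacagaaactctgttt
Oas1a, chr5:120907510-120907643, minus strand: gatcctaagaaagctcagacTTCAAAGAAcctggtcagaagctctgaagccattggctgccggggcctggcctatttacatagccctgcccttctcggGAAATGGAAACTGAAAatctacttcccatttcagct
Oas1g, chr5:120887596-120887651, minus strand: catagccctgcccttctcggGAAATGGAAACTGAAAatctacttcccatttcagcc
Bst2, chr8:71537567-71537628, minus strand: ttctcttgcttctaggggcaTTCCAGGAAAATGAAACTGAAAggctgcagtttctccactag
Irf1, chr11:53769904-53769952, plus strand: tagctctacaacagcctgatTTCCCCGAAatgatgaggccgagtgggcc

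Isg15 carries a run of overlapping ISRE matches, and Ifit1 and Ifit3 each carry a pair of separate ones. Oas1a and Oas1g, neighbouring copies of 1 gene family, share the same ISRE letters close to the start. In Oas1a the capitals further upstream are a GAS match, and in Bst2 the GAS match and the ISRE matches overlap. The Irf1 stretch holds a GAS match and no ISRE match. A match describes letters in a window and does not show that a factor was bound there.

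Nearly all of these genes were highest after 4 h at 500 nM. Together they took 3.266% of all counts with IL-15 and 2.003% with IL-2 after 4 h at 500 nM. After 24 h at that dose the share was 0.9234% with IL-15 and 0.7469% with IL-2. At 1 nM they took 0.3986% with IL-15 and 0.6249% with IL-2 at 24 h and 0.5558% with IL-15 and 0.5333% with IL-2 at 4 h, and in untreated cells 0.3826%. IL-15 at 500 nM and 4 h was the highest of the 9 libraries for 41 of the 42 genes, against 12.6% of all 13479 genes tested. The exception was Irf1, which was highest with IL-2 at the same dose and time. Both 500 nM libraries of 4 h lay above the other 7 libraries for 40 genes, against 7.65% of all genes. The lowest library was the untreated one for 21 genes and IL-15 at 1 nM and 24 h for 13. The share of all genes was not computed for these counts of the lowest library, so they are description only.

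**Figure D1:**
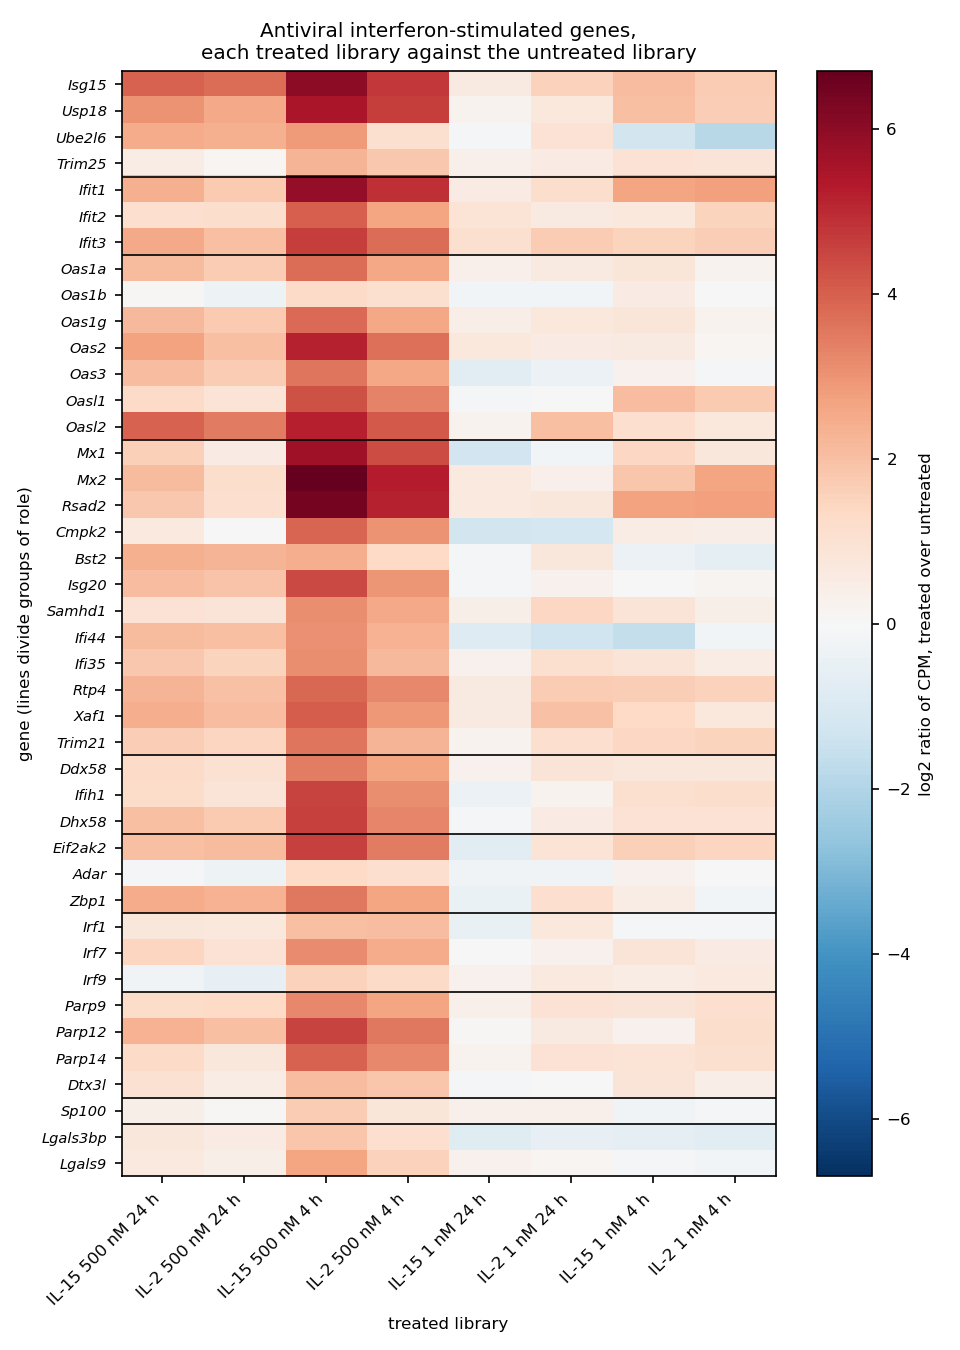
Log2 ratio of counts-per-million units (CPM), each of the 8 treated libraries over the untreated library (columns), for the 42 genes (rows, divided by lines into groups of role). The 2 columns of 500 nM and 4 h are the reddest, with IL-15 at a median of 13.6-fold and IL-2 at a median of 6.28-fold over untreated cells.

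Levels below are CPM, that is read counts scaled to library depth with TMM factors, a unit that compares 1 gene across libraries. Depth was 27158143 to 48799962 counts per library, so a count of 0 allowed up to 0.0594 to 0.113 CPM on the same scale. Reads amplified by PCR are not independent molecules, so such limits cover counting error only. The quasi-likelihood test of edgeR compared conditions, with p adjusted by Benjamini-Hochberg over all 13479 genes and a threshold of 0.05. Differences are given on the log2 scale with their standard error. With no repeated condition, their spread comes from the factorial layout of cytokine, dose and time, and a p-value reflects only how these libraries vary. In bulk RNA, fewer cells of a type and less RNA per cell cannot be told apart. The summed level of 8 T cell markers lay between 2775.4 and 4562 CPM, and that of 12 myeloid markers was 29.1 CPM with IL-15 and 29.4 with IL-2 at 500 nM and 24 h, 143 with IL-15 and 205 with IL-2 at 500 nM and 4 h, 271 to 910 at 1 nM and 1918 in untreated cells. None of these markers was at 0 in all libraries. The sum of 9 B cell markers ran from 208 to 347 CPM at 500 nM, from 475 to 705 CPM at 1 nM and was 692 CPM in untreated cells. NK, dendritic and plasmacytoid dendritic cell markers had their highest sums in untreated cells, at 186, 102 and 114 CPM. Most of that NK sum was Tyrobp, at 94.7 CPM, and Fcer1g, at 88.4. Klrb1c stood at 2.91 CPM in untreated cells, Klra8 at 0.0646 and Ncr1 at 0. Ccr9 gave 70.4 CPM of the plasmacytoid dendritic sum in untreated cells. At 4 h, dose lowered 0 of 11 myeloid, 2 of 9 B cell and 1 of 5 NK cell markers tested by edgeR and raised none of them. At 24 h it lowered 9 of 11 myeloid, 7 of 9 B cell, 2 of 5 NK cell, 2 of 7 dendritic, 2 of 6 plasmacytoid dendritic, 3 of 5 erythroid and 1 of 4 CD4 T cell markers and raised none. Of the last 4 lists none was called at 4 h. Of all genes tested, dose lowered 4.63% and raised 5.42% at 4 h, and lowered 15.6% and raised 15.6% at 24 h. Counts of 1 or 2 in these short lists therefore say little. The NK cell markers called were Tyrobp at 4 h, and Tyrobp and Fcer1g at 24 h. The T cell markers moved both ways, with 3 of 8 higher and 1 lower at 4 h, and 2 higher and 4 lower at 24 h. Among them, Cd8a changed by 0.89 ± 0.17 at 4 h and 0.53 ± 0.17 at 24 h, and Cd3d by -0.41 ± 0.18 at 4 h, which was not called, and -1.48 ± 0.18 at 24 h. The part of these markers in the results was not tested.

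Raising the dose to 500 nM, against 1 nM, raised almost the whole set at 4 h and a smaller number of its members at 24 h. At 4 h, 41 of the 42 genes rose and none fell, with a median log2 change of 2.62 and a range of 0.84 to 4.08. Of all genes tested, 5.42% rose and 4.63% fell, and the median was -0.02. The gene that did not pass was Trim21, the cytosolic antibody receptor, at 1.60 ± 0.84 (adjusted p = 0.29), which held only 0.517 to 6.24 CPM. At 24 h, 26 genes rose, against 15.6% of all genes, and 1 fell, against 15.6% as well, with a median of 1.10. Without IL-15 at 1 nM and 24 h the calls at 24 h dropped to 16, and without IL-15 (500 nM, 24 h) they dropped to 17. At 4 h both 500 nM libraries lay above both 1 nM libraries for all 42 genes, against 24.1% of all genes. At 24 h they did so for 34 of the 42, against 34.2% of all genes.

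Chromosomes given beside a transcript are those of the files' mm8 build. The ISG15 system tags proteins with the ubiquitin-like modifier Isg15 and removes it again. All 4 of its members rose with dose at 4 h and 3 of 4 at 24 h. Here and in the groups below, such counts stand beside the 5.42% of all genes that rose at 4 h. At 24 h, 15.6% of all genes rose and 15.6% fell, so 1 or 2 calls in a small group say little. Usp18 (NM_011909, chromosome 6) encodes the protease that strips Isg15 and blocks the type I interferon receptor, and it had the highest level per length of the group, with a mean of 216 RPKM (the authors' reads scaled by transcript length and depth) over the 9 libraries. The 500 nM Usp18 level was 433 CPM with IL-15 and 316 with IL-2 at 24 h, and 2390.3 with IL-15 and 1364 with IL-2 at 4 h. The 1 nM Usp18 level was 63.4 CPM with IL-15 and 89.5 with IL-2 at 24 h and 222 with IL-15 and 168 with IL-2 at 4 h, against 54.3 in untreated cells. The 4 libraries of 500 nM were all above the 4 of 1 nM, and those of 500 nM and 4 h were the highest. The dose effect on Usp18 was 3.25 ± 0.28 (adjusted p = 4.7e-05) at 4 h and 2.24 ± 0.27 (adjusted p = 9.9e-05) at 24 h. Isg15 itself (NM_015783) is placed on chromosome 17 of the mm8 build in the files, while RefSeq has the gene on chromosome 4 of GRCm38, so which locus its reads came from is uncertain. Isg15 at 500 nM stood at 42.2 CPM with IL-15 and 36.4 with IL-2 at 24 h, and at 173 with IL-15 and 70.7 with IL-2 at 4 h. Isg15 at 1 nM stood at 4.02 CPM with IL-15 and 7.9 with IL-2 at 24 h, 11.4 with IL-15 and 8.83 with IL-2 at 4 h, and 2.68 in untreated cells. Its 500 nM libraries did not overlap the 1 nM ones at either time, and untreated cells were the lowest. At 4 h the rise with dose was 3.56 ± 0.42 (adjusted p = 0.00025), and against untreated cells the 500 nM libraries of 4 h were higher by 5.46 ± 0.63 (adjusted p = 0.0002).

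Ube2l6 (NM_019949, chromosome 2), the conjugating enzyme that loads Isg15, had the largest dose effect of this group at 4 h from low levels. At 500 nM, Ube2l6 measured 10.4 CPM with IL-15 and 9.66 with IL-2 at 24 h, and 13.5 with IL-15 and 3.82 with IL-2 at 4 h. At 1 nM Ube2l6 measured 1.66 CPM with IL-15 and 3.6 with IL-2 at 24 h, 0.792 with IL-15 and 0.511 with IL-2 at 4 h, and 1.84 in untreated cells. With IL-2 at 500 nM, Ube2l6 and Bst2 were the 2 members with a higher level at 24 h than at 4 h. The dose effect was 3.66 ± 0.69 (adjusted p = 0.0047) at 4 h, but the call did not hold without IL-15 (500 nM, 4 h), where it was 2.46 (adjusted p = 0.11 by edgeR). It was 3.51 (adjusted p = 0.073) without IL-2 (1 nM, 4 h) and 3.87 (adjusted p = 0.06) without IL-15 (1 nM, 4 h). Trim25, an E3 ligase that assists the RNA sensor RIG-I, lay between 51.1 and 249 CPM. It rose at 4 h by 1.15 ± 0.20 (adjusted p = 0.0029), a call lost without the IL-15 library of 500 nM and 4 h (0.97, adjusted p = 0.051 by edgeR), and was not called at 24 h, at -0.13 ± 0.20 (adjusted p = 0.68).

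The IFIT proteins bind viral RNA and stop its translation, and all 3 members rose with dose at 4 h. Ifit1 (NM_008331, chromosome 19) recognises RNA with a foreign cap and had the largest dose effect of the group. The 500 nM Ifit1 level was 150 CPM with IL-15 and 97 with IL-2 at 24 h, and 1689 with IL-15 and 845 with IL-2 at 4 h. The 1 nM Ifit1 level was 41.9 CPM with IL-15 and 63.3 with IL-2 at 24 h and 179 with IL-15 and 192 with IL-2 at 4 h, against 28.3 in untreated cells. Both libraries of 500 nM and 4 h lay far above all others, and the libraries of 1 nM and 4 h were above those of 500 nM and 24 h. Dose changed it by 2.73 ± 0.32 (adjusted p = 0.00025) at 4 h and 1.18 ± 0.31 (adjusted p = 0.012) at 24 h. At 500 nM the difference of 24 h from 4 h was -3.35 ± 0.33 (adjusted p = 4e-05). Ifit3 (NM_010501, chromosome 19), a partner that stabilises Ifit1 in human cells, had the highest level per length of the group, at a mean of 104 RPKM. Ifit3 at 500 nM stood at 268 CPM with IL-15 and 188 with IL-2 at 24 h, and at 1124 with IL-15 and 610 with IL-2 at 4 h. Ifit3 at 1 nM stood at 98 CPM with IL-15 and 150 with IL-2 at 24 h, 127 with IL-15 and 142 with IL-2 at 4 h, and 45.8 in untreated cells. Untreated cells were again the lowest, and the 500 nM and 1 nM libraries did not overlap at either time. Ifit3 rose with dose by 2.66 ± 0.31 (adjusted p = 0.00025) at 4 h and 0.85 ± 0.29 (adjusted p = 0.044) at 24 h. Ifit2, a family member next to Ifit3 on chromosome 19, lay between 6.07 and 96.7 CPM and rose at 4 h by 2.23 ± 0.41 (adjusted p = 0.004). Without IL-15 at 500 nM and 4 h that change was 1.42 (adjusted p = 0.076 by edgeR), and without IL-15 (1 nM, 4 h) it was 1.59 (adjusted p = 0.072).

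**Figure D2:**
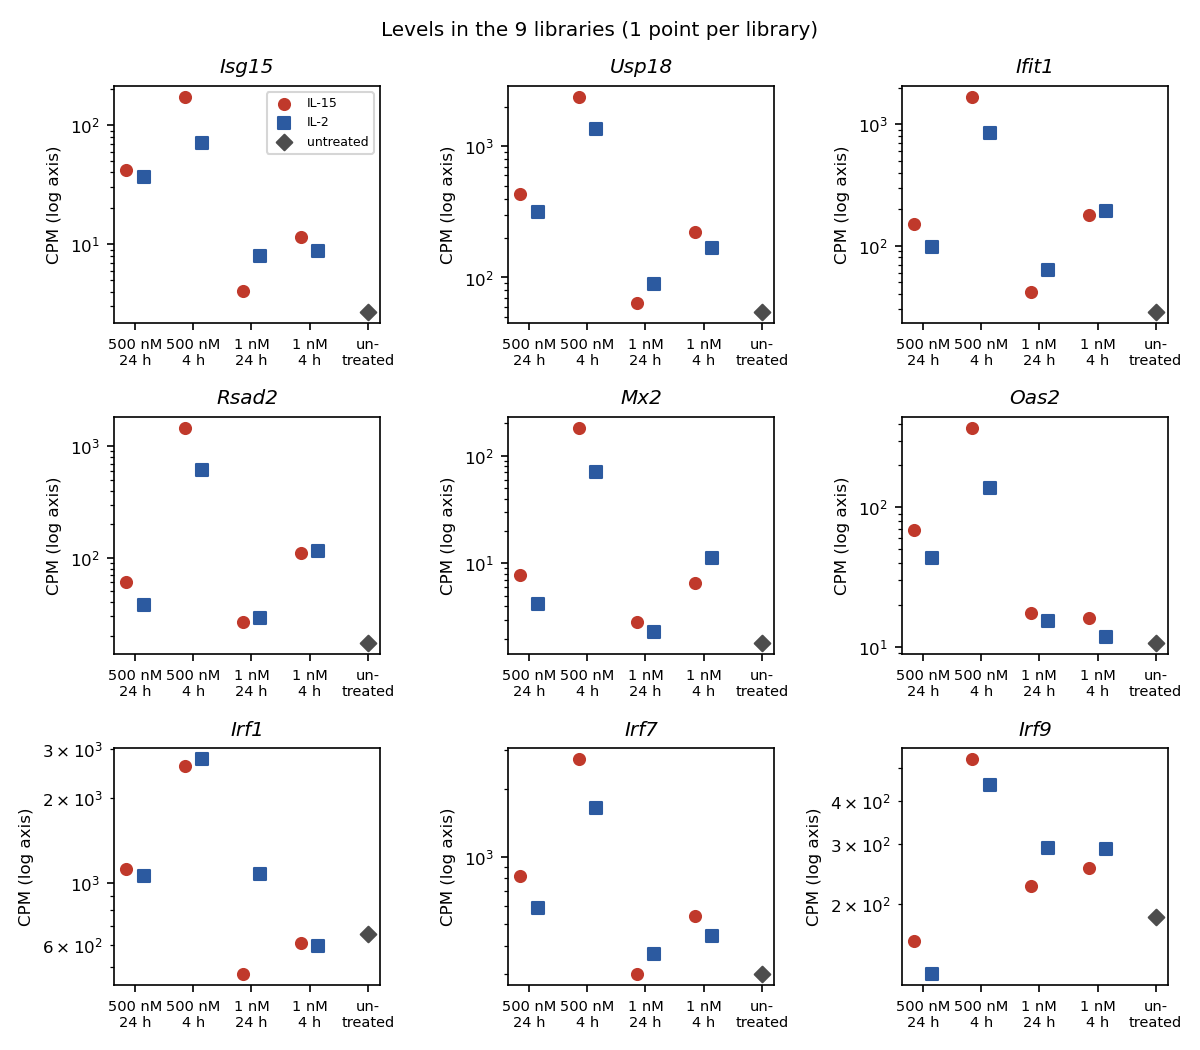
CPM on a log axis in each of the 9 libraries (1 point each; red circles IL-15, blue squares IL-2, grey diamond untreated) for 9 of the genes. The libraries of 500 nM and 4 h are the highest in every panel, and Irf9 is the panel in which the libraries of 500 nM and 24 h lie below those of 1 nM and below untreated cells.

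The oligoadenylate synthetase (OAS) family is named for enzymes that detect double-stranded RNA and make the short adenylate chains that switch on RNase L. Whether each member makes such chains was not examined here. All 7 members rose with dose at 4 h, and 6 of 7 rose at 24 h. Oas2 (NM_145227, chromosome 5) had the largest dose effect of any of the 42 genes at 4 h. At 500 nM, Oas2 measured 68.6 CPM with IL-15 and 43.6 with IL-2 at 24 h, and 373 with IL-15 and 137 with IL-2 at 4 h. At 1 nM Oas2 measured 17.5 CPM with IL-15 and 15.3 with IL-2 at 24 h, 16 with IL-15 and 11.8 with IL-2 at 4 h, and 10.6 in untreated cells. The 4 libraries of 500 nM lay above all the rest, with no overlap. The change with dose was 4.08 ± 0.29 (adjusted p = 2e-05) at 4 h and 1.72 ± 0.27 (adjusted p = 0.00051) at 24 h. Oas1a (NM_145211, chromosome 5) was the highest of the family per length, at a mean of 60.9 RPKM. The 500 nM Oas1a level was 197 CPM with IL-15 and 146 with IL-2 at 24 h, and 605 with IL-15 and 265 with IL-2 at 4 h. The 1 nM Oas1a level was 56 CPM with IL-15 and 68.6 with IL-2 at 24 h and 77.1 with IL-15 and 51.8 with IL-2 at 4 h, against 44.6 in untreated cells. Its dose effect was 2.71 ± 0.29 (adjusted p = 0.00016) at 4 h and 1.40 ± 0.28 (adjusted p = 0.0024) at 24 h, with no overlap at either time. Oas1g, its near-identical neighbour, moved by 2.71 ± 0.29 at 4 h, and how reads were split between such copies is not given in the sources used here, so the values of both are uncertain. Oasl2 (NM_011854, chromosome 5), an OAS-like protein, came second per length, at 48.5 RPKM. Oasl2 at 500 nM stood at 347 CPM with IL-15 and 249 with IL-2 at 24 h, and at 810 with IL-15 and 380 with IL-2 at 4 h. Oasl2 at 1 nM stood at 26.5 CPM with IL-15 and 89.4 with IL-2 at 24 h, 48.6 with IL-15 and 36.3 with IL-2 at 4 h, and 22.2 in untreated cells. The IL-2 library of 1 nM and 24 h stood above the other 1 nM libraries. Oasl2 rose with dose by 3.80 ± 0.51 (adjusted p = 0.0006) at 4 h and 2.32 ± 0.49 (adjusted p = 0.0035) at 24 h. Oasl1, which in mice holds back translation of Irf7, rose by 1.91 ± 0.23 (adjusted p = 0.00031) at 4 h and 1.14 ± 0.23 (adjusted p = 0.0026) at 24 h. Oas3, a further synthetase, rose by 3.05 ± 0.27 (adjusted p = 6.2e-05) at 4 h and 2.40 ± 0.27 (adjusted p = 6.6e-05) at 24 h. Oas1b rose by 0.89 ± 0.20 (adjusted p = 0.014) at 4 h. The Oas1b call was lost at 0.93 (adjusted p = 0.077 by edgeR) without the IL-15 library of 500 nM and 4 h, at 0.86 (adjusted p = 0.063) without its IL-2 counterpart, and at 0.76 (adjusted p = 0.12) without the IL-2 library of 1 nM and 4 h.

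The Mx proteins and other direct effectors form the largest group, and 11 of its 12 members rose with dose at 4 h and 7 at 24 h. Mx1 (NM_010846, chromosome 16) encodes a GTPase that blocks influenza virus, and RefSeq lists both Mx1 and Mx2 as transcribed pseudogenes in the C57BL/6J assembly. At 500 nM, Mx1 measured 35.2 CPM with IL-15 and 17.2 with IL-2 at 24 h, and 589 with IL-15 and 243 with IL-2 at 4 h. At 1 nM Mx1 measured 4.78 CPM with IL-15 and 10.2 with IL-2 at 24 h, 30.8 with IL-15 and 19.8 with IL-2 at 4 h, and 11.7 in untreated cells. Both libraries of 500 nM and 4 h lay well above all others, and the IL-15 library of 1 nM and 24 h was the lowest. Mx1 rose with dose by 3.99 ± 0.45 (adjusted p = 0.00021) at 4 h and 1.63 ± 0.42 (adjusted p = 0.012) at 24 h. Mx2 moved with it, at 3.64 ± 0.43 for dose at 4 h, and stood 6.03 ± 0.66 above untreated cells at 500 nM and 4 h, the largest such difference of the 42 genes. Rsad2 (NM_021384, chromosome 12), which encodes viperin, an enzyme whose product ends viral RNA chains, lies next to Cmpk2, a kinase that supplies its substrate. The 500 nM Rsad2 level was 60.1 CPM with IL-15 and 37.5 with IL-2 at 24 h, and 1465 with IL-15 and 612 with IL-2 at 4 h. The 1 nM Rsad2 level was 26.5 CPM with IL-15 and 29.1 with IL-2 at 24 h and 111 with IL-15 and 116 with IL-2 at 4 h, against 17.1 in untreated cells. Its level at 1 nM and 4 h exceeded that at 500 nM and 24 h with both cytokines. Rsad2 rose with dose by 3.10 ± 0.31 (adjusted p = 0.00012) at 4 h, and at 500 nM the difference of 24 h from 4 h was -4.37 ± 0.33 (adjusted p = 1.9e-05). Cmpk2 rose by 3.0 ± 0.24 (adjusted p = 3.4e-05) at 4 h and 1.51 ± 0.23 (adjusted p = 0.00048) at 24 h.

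Samhd1 (NM_001139520, chromosome 2), which destroys the nucleotides that retroviruses need, was the highest of this group per length, at a mean of 293 RPKM. Samhd1 at 500 nM stood at 1153 CPM with IL-15 and 1074 with IL-2 at 24 h, and at 5172 with IL-15 and 3412 with IL-2 at 4 h. Samhd1 at 1 nM stood at 788 CPM with IL-15 and 1569.7 with IL-2 at 24 h, 1069 with IL-15 and 767 with IL-2 at 4 h, and 592 in untreated cells. At 4 h the doses did not overlap, while at 24 h the IL-2 library of 1 nM was above both 500 nM libraries. The dose effect was 2.22 ± 0.31 (adjusted p = 0.00076) at 4 h and was not called at 24 h, at -0.09 ± 0.30 (adjusted p = 0.86). Ifi35 (NM_027320, chromosome 11), an interferon-induced leucine zipper protein, averaged 87.5 RPKM. At 500 nM, Ifi35 measured 207 CPM with IL-15 and 165 with IL-2 at 24 h, and 499 with IL-15 and 262 with IL-2 at 4 h. At 1 nM Ifi35 measured 70.7 CPM with IL-15 and 124 with IL-2 at 24 h, 105 with IL-15 and 81.8 with IL-2 at 4 h, and 58.2 in untreated cells. The doses did not overlap at either time, and untreated cells were the lowest. Ifi35 rose with dose by 2.01 ± 0.32 (adjusted p = 0.0016) at 4 h and 0.90 ± 0.31 (adjusted p = 0.044) at 24 h. Bst2, or tetherin, holds budding virions on the cell. The 500 nM Bst2 level was 82.9 CPM with IL-15 and 78 with IL-2 at 24 h, and 88 with IL-15 and 40.8 with IL-2 at 4 h. The 1 nM Bst2 level was 14.6 CPM with IL-15 and 26.8 with IL-2 at 24 h and 12.2 with IL-15 and 10.3 with IL-2 at 4 h, against 16 in untreated cells. All 500 nM libraries were above all 1 nM libraries, and the IL-2 level at 500 nM was higher at 24 h than at 4 h. Its dose effect was 2.50 ± 0.37 (adjusted p = 0.001) at 4 h and 1.94 ± 0.36 (adjusted p = 0.0016) at 24 h. Ifi44, an interferon-induced cytoplasmic protein, likewise rose by 3.41 ± 0.50 (adjusted p = 0.001) at 4 h and 3.14 ± 0.49 (adjusted p = 0.0005) at 24 h, from 1.17 to 3.12 CPM in the 1 nM libraries. The RNA exonuclease Isg20 rose by 3.70 ± 0.38 (adjusted p = 0.00014) at 4 h, Rtp4, a chaperone of membrane receptors, by 1.97 ± 0.32 (adjusted p = 0.0019), and Xaf1, an antagonist of an apoptosis inhibitor, by 2.51 ± 0.46 (adjusted p = 0.0037). The Xaf1 call was lost at 1.77 (adjusted p = 0.098 by edgeR) without the IL-15 library of 500 nM and 4 h, and at 2.28 (adjusted p = 0.083) without the IL-2 library of 1 nM and 4 h.

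The 3 RNA sensors all rose with dose at 4 h. Dhx58 (NM_030150, chromosome 11), or LGP2, which tunes the other sensors, was the highest per length, at 39.9 RPKM, and also had the largest dose effect. Dhx58 at 500 nM stood at 107 CPM with IL-15 and 88.9 with IL-2 at 24 h, and at 633 with IL-15 and 258 with IL-2 at 4 h. Dhx58 at 1 nM stood at 25.7 CPM with IL-15 and 39.5 with IL-2 at 24 h, 51.9 with IL-15 and 51.7 with IL-2 at 4 h, and 26.7 in untreated cells. The doses did not overlap at either time. Dhx58 rose by 3.05 ± 0.35 (adjusted p = 0.00025) at 4 h and 1.55 ± 0.34 (adjusted p = 0.0039) at 24 h. Ddx58 (NM_172689, chromosome 4) encodes RIG-I, which detects viral RNA ends. At 500 nM, Ddx58 measured 102 CPM with IL-15 and 85.4 with IL-2 at 24 h, and 459 with IL-15 and 260 with IL-2 at 4 h. At 1 nM Ddx58 measured 51.3 CPM with IL-15 and 75.3 with IL-2 at 24 h, 70.3 with IL-15 and 69.9 with IL-2 at 4 h, and 42 in untreated cells. The doses did not overlap at either time, and untreated cells were the lowest. Its change with dose was 2.34 ± 0.28 (adjusted p = 0.00025) at 4 h and was not called at 24 h, at 0.55 ± 0.26 (adjusted p = 0.14). Ifih1, or MDA5, the sensor of long double-stranded RNA, rose by 2.78 ± 0.38 (adjusted p = 0.00062) at 4 h and 1.07 ± 0.36 (adjusted p = 0.041) at 24 h.

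Among the proteins that bind double-stranded or Z-form nucleic acid, all 3 rose with dose at 4 h. Zbp1 (NM_021394, chromosome 2), a sensor that can trigger cell death, had the highest level per length, at 102 RPKM, and the largest dose effect. The 500 nM Zbp1 level was 427 CPM with IL-15 and 388 with IL-2 at 24 h, and 882 with IL-15 and 487 with IL-2 at 4 h. The 1 nM Zbp1 level was 56.2 CPM with IL-15 and 170 with IL-2 at 24 h and 107 with IL-15 and 68.3 with IL-2 at 4 h, against 77.1 in untreated cells. The IL-2 library of 1 nM and 24 h stood above the other 1 nM libraries and below every 500 nM one. Zbp1 rose by 2.96 ± 0.45 (adjusted p = 0.0013) at 4 h and 1.83 ± 0.44 (adjusted p = 0.0072) at 24 h. Adar (NM_001146296, chromosome 3) edits double-stranded RNA and limits sensing of the cell's own RNA. Adar at 500 nM stood at 183 CPM with IL-15 and 155 with IL-2 at 24 h, and at 506 with IL-15 and 431 with IL-2 at 4 h. Adar at 1 nM stood at 171 CPM with IL-15 and 172 with IL-2 at 24 h, 243 with IL-15 and 198 with IL-2 at 4 h, and 199 in untreated cells. Adar rose at 4 h by 1.09 ± 0.18 (adjusted p = 0.0018), while at 24 h the change was -0.03 ± 0.17 (adjusted p = 0.95) and the doses overlapped. Eif2ak2, or PKR, the kinase that halts translation, lay between 0.956 and 38.3 CPM and rose by 2.64 ± 0.53 (adjusted p = 0.0067) at 4 h. Without IL-15 at 500 nM and 4 h its change was 1.70 (adjusted p = 0.23 by edgeR), without IL-15 (1 nM, 4 h) 2.78 (adjusted p = 0.075) and without IL-2 (1 nM, 4 h) 2.52 (adjusted p = 0.092).

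The 3 interferon regulatory factors (IRFs) all rose with dose at 4 h, and at 24 h 1 rose, 1 fell and 1 was not called. Irf1 (NM_008390, chromosome 11), a factor that responds strongly to interferon gamma, had the highest level per length of all 42 genes, at a mean of 388 RPKM. At 500 nM, Irf1 measured 1117 CPM with IL-15 and 1055 with IL-2 at 24 h, and 2609 with IL-15 and 2759 with IL-2 at 4 h. At 1 nM Irf1 measured 473 CPM with IL-15 and 1076 with IL-2 at 24 h, 613 with IL-15 and 597 with IL-2 at 4 h, and 656 in untreated cells. At 4 h both 500 nM libraries were high and the doses did not overlap, whereas at 24 h the IL-2 library of 1 nM lay between the 500 nM ones. Irf1 rose with dose by 2.14 ± 0.28 (adjusted p = 0.00047) at 4 h and was not called at 24 h, at 0.55 ± 0.27 (adjusted p = 0.15). Irf7 (NM_016850, chromosome 7), the main driver of type I interferon transcription, averaged 319 RPKM. The 500 nM Irf7 level was 824 CPM with IL-15 and 588 with IL-2 at 24 h, and 2738 with IL-15 and 1656 with IL-2 at 4 h. The 1 nM Irf7 level was 299 CPM with IL-15 and 368 with IL-2 at 24 h and 544 with IL-15 and 444 with IL-2 at 4 h, against 300 in untreated cells. Irf7 rose with dose by 2.13 ± 0.23 (adjusted p = 0.00019) at 4 h and 1.04 ± 0.23 (adjusted p = 0.0043) at 24 h, without overlap at either time. Irf9 (NM_001159417, chromosome 14) is the DNA-binding part of the complex that acts on the ISRE. Irf9 at 500 nM stood at 156 CPM with IL-15 and 125 with IL-2 at 24 h, and at 533 with IL-15 and 446 with IL-2 at 4 h. Irf9 at 1 nM stood at 227 CPM with IL-15 and 293 with IL-2 at 24 h, 256 with IL-15 and 291 with IL-2 at 4 h, and 184 in untreated cells. At 4 h the 500 nM libraries were the higher ones, and at 24 h they were the lower ones, below untreated cells as well. Irf9 rose at 4 h by 0.84 ± 0.21 (adjusted p = 0.021) and fell at 24 h by 0.89 ± 0.21 (adjusted p = 0.0062), the only member that fell with dose at 24 h. The call at 4 h was lost at 0.67 (adjusted p = 0.21 by edgeR) without the IL-15 library of 500 nM and 4 h, at 0.71 (adjusted p = 0.15) without that of 1 nM and 4 h, and at 0.97 (adjusted p = 0.067) without the IL-2 library of 1 nM and 4 h.

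The ADP-ribosyltransferases Parp9, Parp12 and Parp14 and the ubiquitin ligase Dtx3l all rose with dose at 4 h, and 2 of the 4 rose at 24 h. Parp9, Dtx3l and Parp14 are neighbours on chromosome 16, and the Parp9 and Dtx3l proteins act as a pair. Parp9 (NM_030253, chromosome 16) was the highest per length, at 47.1 RPKM. At 500 nM, Parp9 measured 184 CPM with IL-15 and 196 with IL-2 at 24 h, and 713 with IL-15 and 488 with IL-2 at 4 h. At 1 nM Parp9 measured 99 CPM with IL-15 and 151 with IL-2 at 24 h, 139 with IL-15 and 167 with IL-2 at 4 h, and 77.4 in untreated cells. Untreated cells were the lowest, and the doses did not overlap at either time. Parp9 rose by 1.99 ± 0.25 (adjusted p = 0.00038) at 4 h and was not called at 24 h, at 0.61 ± 0.24 (adjusted p = 0.073). Dtx3l (NM_001013371, chromosome 16) followed at 32.4 RPKM. The 500 nM Dtx3l level was 263 CPM with IL-15 and 179 with IL-2 at 24 h, and 541 with IL-15 and 458 with IL-2 at 4 h. The 1 nM Dtx3l level was 120 CPM with IL-15 and 132 with IL-2 at 24 h and 232 with IL-15 and 173 with IL-2 at 4 h, against 128 in untreated cells. Here too the doses did not overlap at either time. Dtx3l rose by 1.31 ± 0.20 (adjusted p = 0.0013) at 4 h and 0.78 ± 0.20 (adjusted p = 0.011) at 24 h. Parp12 (NM_172893, chromosome 6), which modifies viral and host proteins in the cytosol, had the largest dose effect of the group. Parp12 at 500 nM stood at 56.9 CPM with IL-15 and 45.6 with IL-2 at 24 h, and at 264 with IL-15 and 132 with IL-2 at 4 h. Parp12 at 1 nM stood at 12 CPM with IL-15 and 17.3 with IL-2 at 24 h, 14 with IL-15 and 25.4 with IL-2 at 4 h, and 11.3 in untreated cells. The doses did not overlap at either time, and the change was 3.33 ± 0.38 (adjusted p = 0.00024) at 4 h and 1.8 ± 0.36 (adjusted p = 0.0023) at 24 h. Parp14, another member of the enzyme family, lay between 48.1 and 735 CPM and rose by 2.60 ± 0.30 (adjusted p = 0.00025) at 4 h.

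Sp100 (NM_013673, chromosome 1), a component of nuclear bodies that restrict viral DNA, rose with dose at 4 h. At 500 nM, Sp100 measured 101 CPM with IL-15 and 82.9 with IL-2 at 24 h, and 251 with IL-15 and 138 with IL-2 at 4 h. At 1 nM Sp100 measured 98.3 CPM with IL-15 and 99.1 with IL-2 at 24 h, 66.8 with IL-15 and 70.6 with IL-2 at 4 h, and 77.7 in untreated cells. The doses overlapped at 24 h and not at 4 h. Its dose effect was 1.46 ± 0.23 (adjusted p = 0.0017) at 4 h and was not called at 24 h, at -0.11 ± 0.23 (adjusted p = 0.76). Lgals3bp (NM_011150, chromosome 11), a secreted glycoprotein that binds galectins, had the second highest level per length of the 42 genes, at a mean of 332 RPKM. The 500 nM Lgals3bp level was 1278 CPM with IL-15 and 1112 with IL-2 at 24 h, and 2744 with IL-15 and 1682 with IL-2 at 4 h. The 1 nM Lgals3bp level was 437 CPM with IL-15 and 528 with IL-2 at 24 h and 509 with IL-15 and 474 with IL-2 at 4 h, against 760 in untreated cells. The untreated level was above all 1 nM libraries and below all 500 nM ones. Lgals3bp rose with dose by 2.15 ± 0.23 (adjusted p = 0.00014) at 4 h and 1.29 ± 0.22 (adjusted p = 0.0009) at 24 h. Lgals9 (NM_010708, chromosome 11), the lectin galectin-9, averaged 112 RPKM. Lgals9 at 500 nM stood at 213 CPM with IL-15 and 180 with IL-2 at 24 h, and at 865 with IL-15 and 397 with IL-2 at 4 h. Lgals9 at 1 nM stood at 169 CPM with IL-15 and 151 with IL-2 at 24 h, 125 with IL-15 and 120 with IL-2 at 4 h, and 137 in untreated cells. The IL-15 library of 500 nM and 4 h stood far above the rest. Lgals9 rose by 2.29 ± 0.25 (adjusted p = 0.00019) at 4 h and was not called at 24 h, at 0.29 ± 0.24 (adjusted p = 0.41).

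**Figure D3:**
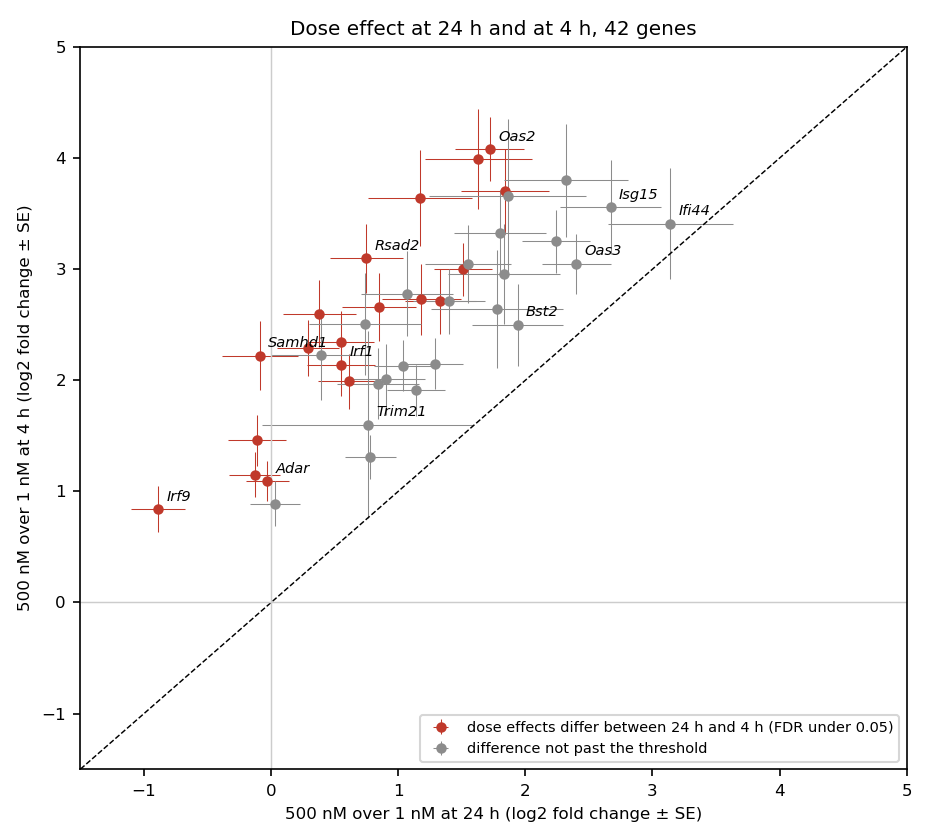
Dose effect of 500 nM over 1 nM for the 42 genes (log2 fold change ± SE), at 24 h (horizontal axis) and at 4 h (vertical axis), with the line of equal effects dashed. All points lie above the line, and the 19 genes in red passed the test that the effects at 24 h and at 4 h differ.

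The dose effect was lower at 24 h than at 4 h in each of the 42 genes. Its difference, 24 h minus 4 h, had a median of -1.48 and a range of -2.48 to -0.27 over the set, against a median of -0.05 over all genes. It passed the threshold for 19 of the 42, against 4.76% of all genes in that direction. The largest were Mx2 at -2.48 ± 0.57 (adjusted p = 0.022), Oas2 at -2.36 ± 0.37 (adjusted p = 0.0041), Mx1 at -2.36 ± 0.58 (adjusted p = 0.027) and Rsad2 at -2.35 ± 0.41 (adjusted p = 0.0064). Calls over all genes moved with single libraries, and were fewest without IL-15 (500 nM, 24 h). The count in the set moved too. It was 5 without IL-15 (500 nM, 4 h), 5 without IL-15 (1 nM, 4 h), 6 without IL-2 (500 nM, 24 h), 9 without IL-2 (1 nM, 24 h), 11 without IL-15 (500 nM, 24 h) and 29 without IL-15 (1 nM, 24 h).

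Time was also compared at a fixed dose, and at 500 nM most of the set was lower at 24 h. There, 36 of the 42 genes were lower at 24 h than at 4 h and none was higher, with a median of -1.65. Of all genes, 12.9% were lower and 13.3% higher. The deepest differences were those of Mx2, at -4.37 ± 0.44 (adjusted p = 4.4e-05), Rsad2, at -4.37 ± 0.33 (adjusted p = 1.9e-05), and Mx1, at -3.97 ± 0.44 (adjusted p = 8.9e-05). The genes that did not pass were Ube2l6, Oasl2, Bst2, Ifi44, Trim21 and Zbp1. The median 24 h level was 0.259 of the 4 h level with IL-15 and 0.379 of it with IL-2. At 1 nM, 6 genes were lower at 24 h, against 1.38% of all genes, namely Usp18, Ifit1, Oasl1, Mx2, Rsad2 and Cmpk2. That count was 1 without IL-2 (1 nM, 4 h) and 10 without IL-15 (1 nM, 24 h). With both doses in 1 term and no dose by time term, 10 genes were lower at 24 h, against 2.62% of all genes, and dose raised 32 of the 42, against 7.63%. The dose count was 21 without IL-2 (1 nM, 4 h). The time count was 2 without IL-15 (500 nM, 24 h), 3 without IL-2 (500 nM, 4 h), 5 without IL-2 (500 nM, 24 h), 5 without IL-2 (1 nM, 4 h), 17 without IL-15 (1 nM, 4 h) and 21 without IL-2 (1 nM, 24 h).

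Against untreated cells, 500 nM for 4 h raised 40 of the 42 genes, with a median log2 change of 3.22, while 7.92% of all genes rose. Ube2l6, at 2.14 ± 0.83 (adjusted p = 0.1), and Trim21, at 3.05 ± 1.18 (adjusted p = 0.1), did not pass. The largest were Mx2, at 6.03 ± 0.66 (adjusted p = 0.00015), Rsad2, at 5.85 ± 0.48 (adjusted p = 3.2e-05), Isg15, at 5.46 ± 0.63 (adjusted p = 0.0002), and Ifit1, at 5.45 ± 0.50 (adjusted p = 4.9e-05). At 500 nM and 24 h, 26 genes were still above untreated cells, with a median of 1.60, against 12.8% of all genes. At 1 nM and 4 h, 7 genes rose, against 2.75% of all genes: Rsad2 at 2.75 ± 0.41 (adjusted p = 0.0029), Ifit1 at 2.72 ± 0.43 (adjusted p = 0.004), Mx2 at 2.39 ± 0.57 (adjusted p = 0.031), Oasl1 at 1.90 ± 0.30 (adjusted p = 0.0044), Usp18 at 1.83 ± 0.34 (adjusted p = 0.0095), Rtp4 at 1.59 ± 0.41 (adjusted p = 0.041) and Ifit3 at 1.56 ± 0.38 (adjusted p = 0.034). That count was 4 without IL-2 (1 nM, 4 h), and 12 without IL-2 (1 nM, 24 h) or without IL-15 (1 nM, 24 h). At 1 nM and 24 h, edgeR called 0 genes of the set, against 0.861% of all genes that rose. DESeq2 called 3 of the set and 712 genes in all. By edgeR, 10 of the 42 had an unadjusted p under 0.05, against 16.1% of all genes. Without IL-15 at 1 nM and 24 h the count was 8, without IL-15 (500 nM, 4 h) or without IL-2 (500 nM, 4 h) it was 2, and without IL-2 (1 nM, 24 h) it was 1. The shares of all genes are not given for the repeats without a library, so their counts are description only. All comparisons with untreated cells share the 1 untreated library.

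IL-15 and IL-2 did not differ past the threshold for any of the 42 genes over all conditions (median log2 difference 0.23). edgeR called 0 genes of the set and 0% of all genes, none of the 42 had an unadjusted p under 0.05, against 0.927% of all genes, and DESeq2 and limma-voom called 0 of the set as well. The matched pairs of single libraries, which carry no test, did not all point the same way. At 500 nM and 24 h, IL-15 was above IL-2 for 39 of 42 genes (52% of all genes), with a median of 1.25-fold, and Mx1 was the only one at least 2-fold higher, against 3.22% of all genes. At 500 nM and 4 h, IL-15 was above IL-2 for 41 genes (47.5% of all genes), with a median of 1.95-fold, and 18 were at least 2-fold higher, against 6.46% of all genes. Ube2l6, Isg20 and Oas2 had the highest ratios there, at 3.51-fold, 2.82-fold and 2.72-fold, and Irf1 the lowest, at 0.946-fold. At 1 nM and 24 h the order turned. IL-15 was below IL-2 for 36 genes and above it for 6 (51% of all genes were above), with a median of 0.701-fold, and 8 were at least 2-fold lower, against 7.98% of all genes. The lowest ratios there were those of Oasl2, at 0.297-fold, Zbp1, at 0.33-fold, and Eif2ak2, at 0.333-fold. At 1 nM and 4 h, IL-15 was above IL-2 for 28 genes (51.8% of all genes), with a median of 1.1-fold, and only Ifi44 was at least 2-fold lower, against 6.91% of all genes.

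**Figure D4:**
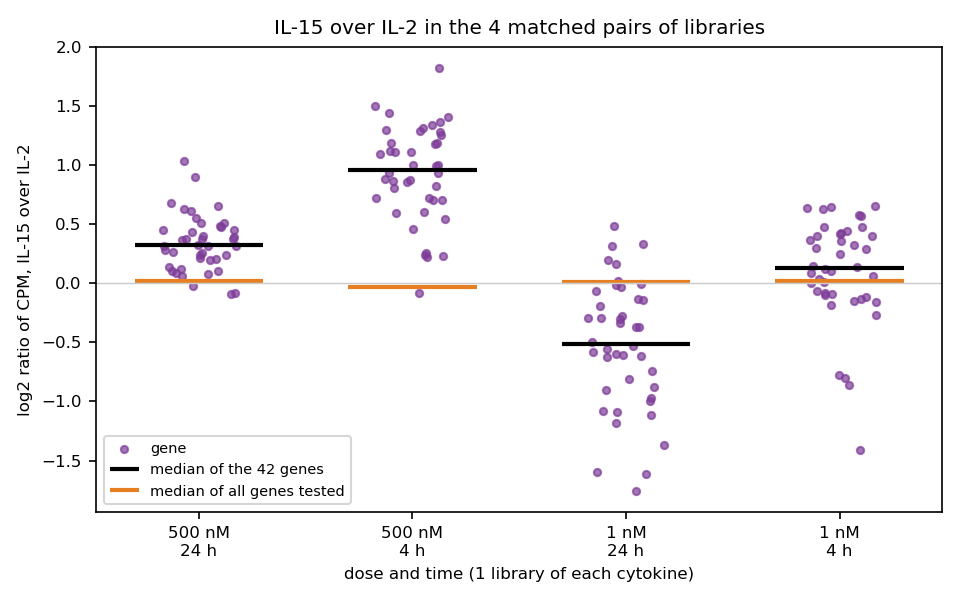
Log2 ratio of CPM, IL-15 over IL-2, for each of the 42 genes (points) in the 4 matched pairs of libraries, with the median of the 42 genes (black line) and of all genes tested (orange line). The points sit mostly above 0 at 500 nM and 4 h, with a median of 0.96, and mostly below 0 at 1 nM and 24 h, with a median of -0.51.

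Fitted over both times together, the dose effect was larger with IL-15 than with IL-2 in all 42 genes, against 50.5% of all genes. The 42 genes were read in the same single libraries, so they do not count as separate repeats of that difference. The median difference was 0.97 on the log2 scale, but no gene passed the test of that difference. edgeR called 0 of the 42 and 0% of all genes, and none of the 42 had an unadjusted p under 0.05, against 1.12% of all genes. At 4 h the median dose fold was 7.92 with IL-15 and 4.42 with IL-2, and at 24 h it was 2.98 with IL-15 and 1.59 with IL-2. Within a single time not every gene had the larger dose fold with IL-15. At 24 h 40 of the 42 did, against 51.6% of all genes, with Ifi44 and Ifit2 the exceptions, and at 4 h 38 did, against 49.5%, with Adar, Dtx3l, Irf1 and Oas1b the exceptions. The test of whether the cytokine difference changed with time also called 0 of the 42 and 0% of all genes, with a median of -0.74, and 3 of the 42 had an unadjusted p under 0.05, against 1.4% of all genes. DESeq2 and limma-voom called 0 members in both tests. Neither fit held a dose by time term, so differences of that kind stayed in the residual spread. The tests therefore cannot show that the cytokines acted alike.

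Other genes of the pathway were read from lists chosen for their roles, again with earlier results of these data known. Of the ligands, 17 type I and type III interferon genes together held 1 to 18 counts per library. The 18 counts were in IL-15 at 500 nM and 4 h, and 17 of them were of Ifnb1, which encodes interferon beta. Ifng, which encodes interferon gamma, was abundant at 500 nM. At 500 nM, Ifng measured 54.5 CPM with IL-15 and 265 with IL-2 at 24 h, and 331 with IL-15 and 93.1 with IL-2 at 4 h. At 1 nM Ifng measured 1.61 CPM with IL-15 and 8.85 with IL-2 at 24 h, 0.83 with IL-15 and 1.91 with IL-2 at 4 h, and 1 in untreated cells. IL-15 was thus the higher at 500 nM and 4 h and IL-2 the higher at 500 nM and 24 h. The rise of Ifng with dose was 7.73 ± 0.96 (adjusted p = 0.00037 by edgeR) at 4 h and 4.90 ± 0.80 (adjusted p = 0.00068) at 24 h.

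Of 14 genes of the interferon receptors and the JAK-STAT chain, 5 rose and none fell with dose at 4 h, where 5.42% of all genes rose and 4.63% fell. At 24 h 3 rose and 5 fell, and since 15.6% of all genes were called in each direction at that time, the share that rose was near that of all genes. Stat2, a factor of type I signalling, rose by 2.41 ± 0.32 (adjusted p = 0.00055 by edgeR) at 4 h and 0.91 ± 0.31 (adjusted p = 0.043) at 24 h. Socs1, a feedback inhibitor of JAK kinases, rose by 2.69 ± 0.20 (adjusted p = 2e-05) at 4 h, and Socs3, another such inhibitor, by 1.34 ± 0.24 (adjusted p = 0.0033).

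Of 15 sensing genes upstream of interferon that were tested, 6 rose and 1 fell at 4 h, against 5.42% and 4.63% of all genes. Tlr7, an endosomal sensor of single-stranded RNA, rose by 2.62 ± 0.69, Nlrc5, an activator of MHC class I genes, by 1.82 ± 0.22, the adaptor Myd88 by 1.60 ± 0.19 and Tmem173, which encodes STING, by 1.15 ± 0.19. The kinase gene Ikbke fell by 0.80 ± 0.19 (adjusted p = 0.017 by edgeR). At 24 h, 2 of the 15 rose and 2 fell, shares near the 15.6% of all genes called in each direction.

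A second list of interferon-stimulated genes outside the 42 moved in the same direction at 4 h. Of its 43 genes tested, 32 rose and none fell with dose at 4 h, against 5.42% and 4.63% of all genes, with a median of 1.78. At 24 h, 9 rose and 5 fell, shares near the 15.6% of all genes in each direction, with a median of 0.31. The dose effect differed between 24 h and 4 h for 26 of the 43, each time lower at 24 h, against 4.76% of all genes in that direction. Slfn5, a Schlafen family gene, rose at 4 h by 4.41 ± 0.28 (adjusted p = 1.1e-05 by edgeR). Cxcl10, a chemokine that draws T cells, stood at 1261 CPM with IL-15 and 563 with IL-2 at 500 nM and 4 h, against 3 in untreated cells. It rose with dose by 4.24 ± 0.68 (adjusted p = 0.0017) at 4 h, and at 24 h the change was 0.69 ± 0.62 (adjusted p = 0.45). Cxcl9, its interferon gamma-inducible relative, rose at 4 h by 3.28 ± 0.52 (adjusted p = 0.0017), and Ddx60, a helicase that assists RNA sensing, by 3.10 ± 0.46 (adjusted p = 0.0011).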

How the data were processed

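RNA of splenic CD8+ T cells was sequenced in 9 libraries, 1 per condition. Per the submitters' processing notes, base calling used CASAVA 1.8 and alignment Bowtie 0.12.4 to mm8. The counter, its strand setting and its treatment of reads with several matches: not given in the sources used here. Per the file headers, the authors deposited raw read counts per RefSeq transcript and RPKM values made from them, with exon length. Counts were tested, and RPKM served only to compare levels between genes.

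Genes were kept by filterByExpr (minimum count 10, total 15), which left 13479. edgeR 4.0.16 (quasi-likelihood, legacy deviances, TMM, R 4.3.3) fitted an untreated term, cytokine, dose and time over 9 libraries, leaving 4 residual degrees of freedom. Fits with a dose by time, cytokine by dose or cytokine by time term left 3. Dose at each time, time at each dose and each dose and time against untreated cells came from the dose by time fit. The time contrasts at a fixed dose were added after values had been seen. P-values were adjusted by Benjamini-Hochberg at 0.05. The code was tested on simulated data.

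The genes and lists were chosen with earlier results of these data known. Values in every library are given for the 2 members of each role group with the highest mean RPKM, the member with the largest dose change at 4 h, every IRF and any member against the majority. Rsad2 and Bst2 were added for their promoters. Other lists give up to 4 called genes with the largest dose change at 4 h, plus Ifng and Stat2. Some items are not reported here. Promoters are RefSeq's (GRCm38.p6). Alternatives were DESeq2 1.42.0, limma-voom (limma 3.58.1), median-of-ratios scaling, no filter, other fits and omitted libraries.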

Additional observations from a re-analysis of the deposited data

Results flagged for a closer look

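For 19 of the 42 genes the effect of 500 nM over 1 nM differed between 24 h and 4 h by edgeR's interaction test, each time lower at 24 h. As log2 effect at 24 h minus log2 effect at 4 h, the difference was -2.48 for Mx2, -2.36 for Oas2, -2.36 for Mx1, -2.35 for Rsad2, -2.32 for Samhd1, -2.22 for Parp14 and -2.00 for Lgals9. It was -1.86 for Isg20, -1.81 for Ifit3, -1.79 for Ddx58, -1.73 for Irf9, -1.60 for Irf1, -1.57 for Sp100, -1.55 for Ifit1 and -1.49 for Cmpk2. It was -1.38 for Oas1g, -1.38 for Parp9, -1.28 for Trim25 and -1.12 for Adar. Irf9 is the gene among them whose dose effect passed the threshold in opposite directions, at -0.89 ± 0.21 at 24 h and 0.84 ± 0.21 at 4 h. The sums of myeloid, B cell and NK cell markers were lower at 500 nM than at 1 nM at both times. The same interaction test called a lower dose effect at 24 h for 8 of 11 myeloid, 3 of 9 B cell and 1 of 5 NK cell markers. Of all genes, 4.76% were called in that direction. The median difference was -4.44 for myeloid, -0.89 for B cell and 0.06 for NK cell markers. The part of these markers in the differences of the 19 genes was not tested. No condition had 4 or more libraries, so no library could be tested as standing apart from its group.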

How the results depend on the processing

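No paired analysis was possible because each condition had 1 library and the labels carry no replicate numbers. Of the 42 genes, the count called for time (10 as reported) was 25 by DESeq2, 19 by limma-voom and 31 with a dose by time term. It was 38 without both libraries of 1 nM and 24 h, where the calls over all genes rose as well, from 715 to 3715. Without both libraries of 500 nM and 4 h it was 5. The last 2 settings were chosen after seeing the data. With 1 library left out in turn, the counts ran from 21 to 35 for dose, 2 to 21 for time, 5 to 29 for dose by time, 34 to 41 for dose at 4 h, 16 to 33 for dose at 24 h, 37 to 41 for 500 nM and 4 h against untreated, 18 to 31 for 500 nM and 24 h, 4 to 12 for 1 nM and 4 h, 0 to 8 for 1 nM and 24 h, 26 to 38 for time at 500 nM and 1 to 10 for time at 1 nM. Without a library, the lone library of its condition is assumed to vary like the others. For 1 nM and 4 h against untreated cells limma-voom called 4 genes, and for 1 nM and 24 h DESeq2 called 3, median-of-ratios scaling 1 and no filter 2. Over all genes, DESeq2 called 712 at 1 nM and 24 h, against 222 by edgeR as reported. The 3 cytokine tests called 0 members under every alternative run, but over all genes they called at most 2, by DESeq2 for IL-15 against IL-2. As reported, none of the 3 fits held a dose by time term, so differences of that kind stayed in their residual spread. These tests therefore cannot show that the cytokines acted alike. The overall dose effect of Irf9 (-0.02 as reported) ran from -0.34 to 0.32 with 1 library left out and was positive when any of the 4 libraries of 24 h was. The time effect ran from -0.96 to 0.14 for Oasl2, -0.76 to 0.12 for Zbp1 and -0.55 to 0.08 for Sp100. It was positive when IL-15 (500 nM, 4 h) was left out, and for Oasl2 and Zbp1 also without IL-15 (1 nM, 24 h). The cause was not tested. For dose at 4 h, no gene reversed in 630 repeats over genes and settings, and the call was lost in 17 of these repeats, which fell on 7 genes. Over all genes and across the alternatives, the calls for dose (2170) ran from 927 without IL-15 (500 nM, 24 h) to 4390 without both libraries of 500 nM and 4 h. Those for time (715) ran from 82 without IL-15 (500 nM, 24 h) to 3715 without both libraries of 1 nM and 24 h. Low levels limit Trim21, Ube2l6, Eif2ak2 and Ifi44, and the type I interferon genes were at or near 0.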
